A study of Rattus norvegicus with 12 samples.

Results

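Skeletal muscle contractile genes, grouped by the fibre type that uses them, were followed in 12 mammary glands of rats at PND21. The members were 40 listed genes of the sarcomere, calcium handling and muscle metabolism, and 34 of them had a row among the 16511 genes of the count table and are described here. Ttn, Neb, Atp2a1, Ryr1, Tcap and Ldb3 were not matched to a row and were not analysed here. The 34 genes comprised 13 fast fibre genes, 8 slow fibre genes, 2 developmental myosins, 6 sarcomere genes shared by fast and slow fibres, and 5 genes of muscle enzymes and the oxygen store. By the labels and the design text the samples were snap-frozen mammary glands from offspring of dams given a high fat butter diet (HFB, 6 glands) or the control AIN diet (CTL, 6 glands) while carrying them. Each gland came from a different litter, and the study's methods name SD rats. The design text starts the maternal diet in early gestation and the paper's methods start it before mating. More than 1 end of it is given, and the span that applies here was not settled. The design text puts the young of both diets on AIN after birth. The paper describes its RNA sequencing as made from laser-microdissected epithelium in a comparison without the control diet, so it differs from the labels, which were followed here. Each gland gave 1 library, named below by its diet and library number (HFB 1 to 6, CTL 7 to 11 and CTL 14). Total counts lay between 2320267 and 2944680, so that 3 counts, taken as the smallest detectable level, corresponded to between 0.949 and 1.30 CPM (counts scaled to a common library size with TMM factors from edgeR).

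As background, a skeletal muscle fibre contracts when myosin heavy chains of the thick filament pull on actin, and the fibre type is set largely by which heavy chain it makes. Fast fibres use Myh1, Myh2 and Myh4 with fast light chains and troponins, and slow fibres use Myh7 with slow forms, some of which the heart shares. Calcium released from the sarcoplasmic reticulum binds troponin and starts contraction, and calsequestrins store that calcium. The mammary gland itself makes no striated muscle, but it lies under the skin beside thin sheets of skeletal muscle, and its myoepithelium and vessels hold smooth muscle type proteins such as tropomyosins.

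The promoters of 4 members that the text below returns to are shown first. Promoter sequence from RefSeq (GRCr8) was matched for 35 of the 40 member genes, and the 250 bases before the start were read. Capitals mark CANNTG, the E-box that myogenic factors such as MyoD can bind, and TATAAA, both searched on both strands. The sequences are those of Acta1, the skeletal muscle actin (chr19:68784195-68784444, minus strand), Ckm, the muscle creatine kinase (chr1:88189211-88189460, plus strand), Myh4, a fast heavy chain (chr10:52421898-52422147, plus strand), and Myh7, the slow heavy chain (chr15:32438195-32438444, minus strand).
Acta1: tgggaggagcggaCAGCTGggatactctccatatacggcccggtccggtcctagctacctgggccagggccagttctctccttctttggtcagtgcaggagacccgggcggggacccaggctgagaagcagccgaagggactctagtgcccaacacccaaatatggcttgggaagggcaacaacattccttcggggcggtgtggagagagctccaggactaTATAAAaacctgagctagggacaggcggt
Ckm: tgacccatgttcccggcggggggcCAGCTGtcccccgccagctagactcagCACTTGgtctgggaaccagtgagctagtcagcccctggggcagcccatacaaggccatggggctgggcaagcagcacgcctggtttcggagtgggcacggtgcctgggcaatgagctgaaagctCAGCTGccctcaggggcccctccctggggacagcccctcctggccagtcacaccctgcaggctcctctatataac
Myh4: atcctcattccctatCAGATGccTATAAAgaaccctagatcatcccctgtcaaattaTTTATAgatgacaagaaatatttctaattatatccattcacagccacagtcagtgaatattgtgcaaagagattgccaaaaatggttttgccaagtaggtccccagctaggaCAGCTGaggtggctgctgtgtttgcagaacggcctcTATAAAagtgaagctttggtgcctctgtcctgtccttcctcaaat
Myh7: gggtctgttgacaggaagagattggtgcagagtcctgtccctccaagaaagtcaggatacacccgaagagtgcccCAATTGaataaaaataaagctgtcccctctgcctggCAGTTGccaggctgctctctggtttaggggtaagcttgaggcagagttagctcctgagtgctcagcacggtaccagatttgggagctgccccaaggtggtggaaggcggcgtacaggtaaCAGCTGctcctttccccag
CANNTG was found in 29 of the 35 member genes and in 65.5% of all 33469 promoters. CAGCTG, a form of CANNTG, was found in 11 member genes and in 11.97% of all promoters, and each of the 4 promoters shown holds it. CATTCC was found in 8 member genes and 12.1% of all promoters, and TATAAA in 11 and 12.9%. The MEF2 consensus was found in 2 member genes, Myl1 and Ttn, and in 0.523% of all promoters. Acta1 has TATAAA beginning 29 bases before its start and Myh4 has its nearest 45 bases before. These matches are of letters only, and their part in the levels was not tested.

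The share of counts in the member genes differed widely between glands of the same diet. The 34 genes together took between 0.0993% of all counts in HFB 1 (95% Wilson interval 0.0953% to 0.103%) and 1.38% in HFB 6 (1.36% to 1.39%) in the HFB glands. In the CTL glands they took between 0.0753% in CTL 10 (0.0720% to 0.0788%) and 1.33% in CTL 11 (1.31% to 1.34%). Of the 34, Des, Tpm1 and Tpm2 are also made outside skeletal muscle, and they held 45.9% of the member counts in CTL 10 and 6.30% in HFB 3, the highest and lowest of the 12. Without these 3 genes, a choice made after seeing the data, the shares ran from 0.0740% in HFB 1 (0.0706% to 0.0776%) to 1.23% in HFB 6 (1.22% to 1.24%) and from 0.0408% in CTL 10 (0.0384% to 0.0433%) to 1.22% in CTL 11 (1.21% to 1.23%). These intervals, and the limit of 3 counts, cover counting error only. The summed CPM of the fast genes was 421 in HFB 1, 606 in HFB 2, 6995 in HFB 3, 2539 in HFB 4, 3618 in HFB 5 and 8055 in HFB 6. It was 1015 in CTL 7, 1963 in CTL 8, 3271 in CTL 9, 216 in CTL 10, 8277 in CTL 11 and 1338 in CTL 14. HFB 3, HFB 6 and CTL 11 thus held the most fast fibre RNA, CTL 10, HFB 1 and HFB 2 the least, and the diets overlapped over nearly their whole range. The summed CPM of the slow genes ran from 26.1 in HFB 2 to 461 in HFB 3 and from 32.6 in CTL 10 to 343 in CTL 11. Fewer muscle fibres in the sample and less muscle RNA per fibre cannot be told apart in gland RNA.

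**Figure D1:**
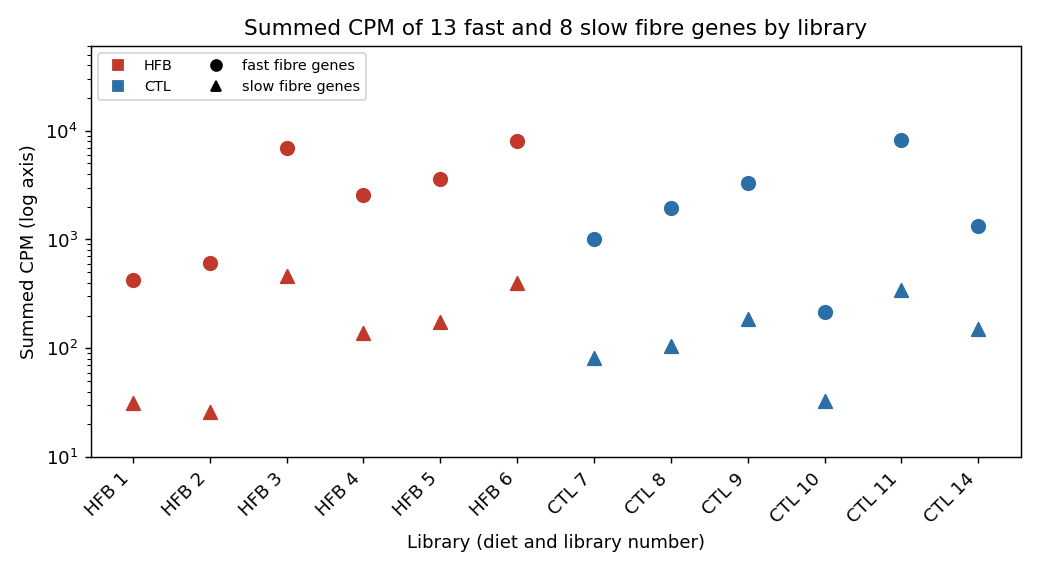
Summed CPM on a log axis for the 13 fast fibre genes (circles) and the 8 slow fibre genes (triangles) in each library, HFB in red and CTL in blue. The fast sum runs from 216 CPM in CTL 10 to 8277 CPM in CTL 11, and the slow sum follows it at a lower level.

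Over the 12 glands the log2 sums of the fast and slow genes followed each other, with Pearson r = 0.951 and Spearman rho = 0.916 over 12 libraries. Without the 2 libraries farthest from the median fast sum r was 0.939, and without HFB 6 and CTL 14 it was 0.958. Both sums share each library's total and its scaling, so r is given as a description. CTL 10 had the lowest value of the 12 for 23 of the 34 genes. HFB 6 had the highest value for 17 genes, HFB 3 for 9 and CTL 11 for 8. Of the 32 genes with at least 3 counts in every library, the highest level was 38.0 times the lowest in the median gene. Pvalb, the calcium buffer of fast fibres, had the widest span at 94.96-fold, and Tpm1, a tropomyosin also made outside skeletal muscle, the narrowest at 4.82-fold.

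The libraries HFB 6 and CTL 14 stood apart from the other 10 in markers of other cell types. Of the lymphoid markers, 8 of 10 listed genes had a row and 3 were tested. Their summed level was 1089.6 CPM in HFB 6 and 1234 CPM in CTL 14, and at most 357 CPM, in HFB 1, elsewhere. Ptprc, which encodes the leukocyte surface protein CD45, led them, meaning here and below that its mean CPM over the 12 libraries was the highest of the list. In HFB 6 itself Cd79b (263 CPM) and Cd3d (219 CPM), of B and T cells, were above Ptprc (187 CPM). The adipocyte marker sum, led by the fatty acid carrier Fabp4, was 23302 CPM in HFB 6 and 18384 CPM in CTL 14, against 42515 to 51846 CPM in the other libraries. Cfd, of the same list, lay within the range of the other libraries in both, at 4062 and 2177 CPM. Retn did so in HFB 6, at 1503 CPM, but in CTL 14 it was the lowest of the 12, at 738 CPM against 749 to 1543 CPM. The smooth muscle and myoepithelial sum, led by Tagln, was 1352 and 1445 CPM, against 232 to 641 CPM. Within that list Oxtr, the oxytocin receptor, went the other way, at 0.802 and 2.11 CPM against 12.8 to 73.1 CPM, as did Synpo2, at 2.004 and 3.17 CPM against 5.03 to 22.3 CPM. Mylk was at 111 CPM in HFB 6, within the 51.1 to 132 CPM of the other libraries, and at 137 CPM in CTL 14. Krt14, at 56.9 and 57.1 CPM, was close to its level in CTL 8, 56.9 CPM. The endothelial sum, led by Egfl7, was 629 and 563 CPM, against 156 to 242 CPM. That difference lay in Egfl7 and Pecam1, since Tek was at 46.1 and 51.1 CPM against 30.6 to 70.5 CPM, and Cdh5 was at 2.81 CPM in HFB 6, the lowest of the 12, and 27.5 CPM in CTL 14. These genes were singled out after their values were seen. Several results below are also given without HFB 6 and CTL 14, and the part of these cell types in the muscle values was not tested.

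Among the thick filament motors, all 3 fast heavy chains were detected in every gland. Myh4, the heavy chain of the fastest fibres, lay between 26.6 and 740.0 CPM in the HFB glands (median 184) and between 13.4 and 555 CPM in the CTL glands (median 133). Myh1, a fast heavy chain, lay between 26.6 and 479 CPM in the HFB glands (median 132) and between 19.3 and 437 CPM in the CTL glands (median 126). Myh2, the heavy chain of fast oxidative fibres, lay between 13.7 and 251 CPM in the HFB glands (median 72.0) and between 9.65 and 254 CPM in the CTL glands (median 64.6). Each of the 3 was lowest in CTL 10, and the diets overlapped for each. The slow heavy chain Myh7 lay between 1.71 and 87.8 CPM in the HFB glands (median 18.7) and between 4.45 and 36.6 CPM in the CTL glands (median 20.9), with its lowest level in HFB 2 and its highest in HFB 6.

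The developmental heavy chains, made in the embryo and around birth, were still counted at PND21. The perinatal Myh8 lay between 6.43 and 231 CPM in the HFB glands (median 52.2) and between 4.08 and 162 CPM in the CTL glands (median 46.1), and had at least 11 counts in every gland. The embryonic Myh3 had few counts and lay between 0.387 and 15.2 CPM in the HFB glands (median 2.998) and between 0 and 21.5 CPM in the CTL glands (median 5.83). Myh3 had 0 counts in CTL 10, which allows up to 1.11 CPM there, and fewer than 3 counts in 3 libraries in all. Myh8 made up between 8.67% in HFB 2 (95% Wilson interval 5.32% to 13.8%) and 13.5% in HFB 6 (12.5% to 14.6%) of the counts of Myh1, Myh2, Myh3, Myh4 and Myh8 together, and Myh3 at most 2.21%, in HFB 1 (0.949% to 5.07%). In the same sum the share of Myh4 lay between 28.8% in CTL 10 (21.6% to 37.3%) and 46.0% in HFB 4 (43.2% to 48.7%), with a median of 37.3% in the HFB and 35.8% in the CTL glands. The 5 genes lie in a row in GRCr8, in the order Myh3, Myh2, Myh1, Myh4 and Myh8, and their sequences are alike, so that the split of reads among them is uncertain. Gene lengths were not corrected for, and these shares compare libraries, not genes.

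The myosin light chains, which brace the lever arm of the heavy chain, covered the same wide range. The fast regulatory chain Mylpf (listed as Myl11 in GRCr8) lay between 103 and 1842 CPM in the HFB glands (median 875) and between 47.5 and 2343 CPM in the CTL glands (median 406). Its slow counterpart Myl2 lay between 2.06 and 97.5 CPM in the HFB glands (median 24.9) and between 1.86 and 55.2 CPM in the CTL glands (median 18.9). Both were lowest in CTL 10 and HFB 1 of their diets. The fast essential chain Myl1 lay between 81.4 and 1610.3 CPM in the HFB glands (median 542) and between 42.7 and 1647 CPM in the CTL glands (median 305). The slow essential chain Myl3 lay between 3.86 and 52.3 CPM in the HFB glands (median 19.0) and between 5.57 and 31.6 CPM in the CTL glands (median 15.8). HFB 3 held the highest Myl3 of all libraries, CTL 10 and HFB 2 the lowest of their diets, and the diets overlapped for all 4 light chains. Of the myosin binding proteins C, which cross-link the thick filament, the fast Mybpc2 lay between 6.58 and 154 CPM in the HFB glands (median 46.2) and between 5.19 and 139.9 CPM in the CTL glands (median 27.4). The slow Mybpc1 lay between 9.42 and 149 CPM in the HFB glands (median 45.2) and between 10.8 and 134 CPM in the CTL glands (median 35.6). CTL 11 was the highest CTL gland for each gene of this paragraph.

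The thin filament genes encode actin and the troponin complex, the calcium switch of contraction. Acta1, the skeletal muscle actin used by fast and slow fibres, lay between 132 and 2196 CPM in the HFB glands (median 790.3) and between 76.1 and 2146 CPM in the CTL glands (median 512). Its lowest and highest levels were in CTL 10 and HFB 3. Of the troponin T genes, whose product ties the complex to tropomyosin, the fast Tnnt3 lay between 43.2 and 570.2 CPM in the HFB glands (median 253) and between 20.8 and 681 CPM in the CTL glands (median 136). The slow Tnnt1 lay between 1.23 and 40.5 CPM in the HFB glands (median 17.98) and between 2.60 and 25.7 CPM in the CTL glands (median 12.03). Both were lowest in HFB 1 and CTL 10 within their diets. Of the inhibitory subunits, the fast Tnni2 lay between 33.7 and 1052 CPM in the HFB glands (median 282) and between 20.4 and 649 CPM in the CTL glands (median 134). The slow Tnni1 lay between 1.65 and 36.7 CPM in the HFB glands (median 10.98) and between 1.86 and 20.6 CPM in the CTL glands (median 6.97). Tnni1 was highest in HFB 3 and Tnni2 in HFB 6, and neither separated the diets. Of the calcium-binding subunits, the fast Tnnc2 lay between 24.3 and 1172 CPM in the HFB glands (median 249) and between 18.6 and 587 CPM in the CTL glands (median 142). The slow and cardiac Tnnc1 lay between 2.06 and 33.5 CPM in the HFB glands (median 12.9) and between 2.53 and 20.6 CPM in the CTL glands (median 7.83). Again HFB 6 was the highest of all libraries for the fast form and HFB 3 for the slow form.

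At the Z-disc, where thin filaments are anchored, the fast fibre actinin Actn3 lay between 9.05 and 284 CPM in the HFB glands (median 76.6) and between 5.57 and 223 CPM in the CTL glands (median 46.9). Of the calsequestrins, the fast Casq1 lay between 9.46 and 189 CPM in the HFB glands (median 77.0) and between 4.82 and 239 CPM in the CTL glands (median 46.8). Casq2, the slow and cardiac form, lay between 1.65 and 8.82 CPM in the HFB glands (median 3.53) and between 0.742 and 21.1 CPM in the CTL glands (median 7.65) and had 2 counts in CTL 10. Pvalb, which binds calcium and speeds the relaxation of fast fibres, lay between 23.9 and 599 CPM in the HFB glands (median 248) and between 6.31 and 417 CPM in the CTL glands (median 100.2). For Casq1 and Pvalb the HFB median exceeded the CTL median, and for Casq2 it was below it, with overlap in each case. Ckm, which regenerates ATP from creatine phosphate, lay between 46.9 and 1311 CPM in the HFB glands (median 289) and between 15.6 and 653 CPM in the CTL glands (median 182). Mb, the oxygen store myoglobin, lay between 6.17 and 168 CPM in the HFB glands (median 54.3) and between 8.53 and 150.0 CPM in the CTL glands (median 35.4). Pgam2, the muscle form of a glycolytic mutase, lay between 9.87 and 362 CPM in the HFB glands (median 105) and between 6.68 and 185 CPM in the CTL glands (median 46.9). The enzymes Ckm and Pgam2 were highest in HFB 6, whereas Mb was highest in HFB 3.

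The other 8 members were Myoz1, Actn2, Myot, Des, Tpm1, Tpm2, Eno3 and Pygm. Their highest levels ranged from 67.8 CPM for Actn2, the actinin of all fibres, to 731 CPM for Tpm2, a tropomyosin. Actn2 was at 3 counts in HFB 2, and the other 7 had at least 5 counts in every library. Over all 34 genes the median of the HFB glands was above that of the CTL glands for 30 (88.2%), beside 4636 of the 9382 genes tested (49.4%), and for 29 without HFB 6 and CTL 14. The fitted log2 fold change leaned less steadily, with 31 of 34 above 0 in edgeR, 14 of 33 without HFB 6 and CTL 14 and 18 of 34 with limma-voom. The diets overlapped for each of the 34. Among all genes tested, the diets did not overlap for 10 of 9382, or 0.107%.

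Fast against slow fibre genes were then compared within each gland, which removes the library total. Whether it also removes the amount of muscle was not tested. In each diet the share of slow genes was highest in the gland with the lowest fast sum, HFB 1 and CTL 10. It was lowest in CTL 11, which had the highest fast sum, and in HFB 2, where the fast sum was low. Slow genes made up between 4.13% (HFB 2) and 6.99% (HFB 1) of the summed slow and fast counts in the HFB glands, with a median of 4.95%. In the CTL glands they made up between 3.97% (CTL 11) and 13.1% (CTL 10), with a median of 6.42%. CTL 10 at 13.1% (95% Wilson interval 10.8% to 15.9%) and CTL 14 at 10.2% (9.33% to 11.2%) were above every HFB gland, of which the highest, HFB 1, was at 6.99% (5.63% to 8.65%). The other 4 CTL glands lay within or close to the HFB range, with CTL 7 at 7.47% (6.64% to 8.39%). CTL 10 rested on 88 slow and 583 fast counts, and CTL 14 on 432 and 3799. Mybpc1 was the slow gene with the most counts in every library. It gave 39 of the 77 slow counts in HFB 1 and 29 of the 88 in CTL 10. The place of HFB 1 as the highest HFB gland thus leans on this gene, and the share without Mybpc1 was not taken. On the log2 scale the fast to slow ratio of summed CPM was 4.19 ± 0.30 (SD, n = 6) in the HFB and 3.74 ± 0.71 (SD, n = 6) in the CTL glands. The difference of 0.44 was smaller than the pooled SD of 0.55. It was 0.24 without CTL 10 and 0.29 without HFB 6 and CTL 14, the latter chosen after seeing the data.

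**Figure D2:**
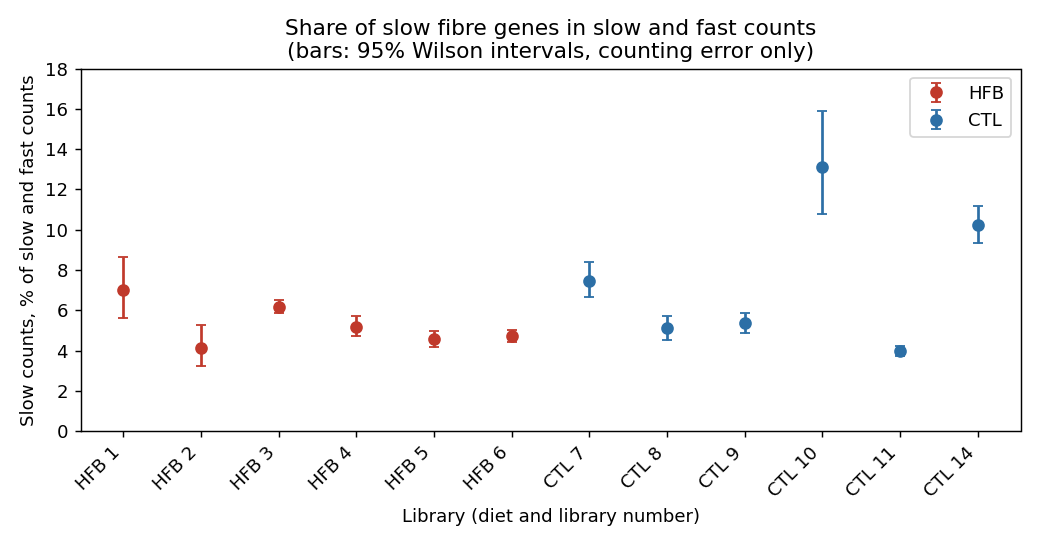
Slow fibre genes as a percent of the slow and fast counts in each library, with 95% Wilson intervals for counting error, HFB in red and CTL in blue. CTL 10 and CTL 14 lie at 13.1% and 10.2%, above the highest HFB gland at 6.99%, and the other 4 CTL glands are at or near the HFB range.

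The same share was taken for 8 pairs of a fast and a slow form of the same protein. For the heavy chains Myh4 and Myh7 the slow share was 6.06% to 11.9% in the HFB glands (median 9.30%) and 5.73% to 25.0% in the CTL glands (median 11.1%). The highest were 25.0% in CTL 10 (14.9% to 38.8%) and 20.4% in CTL 14 (17.2% to 24.2%), with 95% Wilson intervals in brackets. The same libraries were the highest for the essential light chains Myl1 and Myl3, with 11.5% in CTL 10 (7.12% to 18.2%) and 11.1% in CTL 14 (8.60% to 14.1%). For troponin T the values were 11.1% in CTL 10 (5.49% to 21.2%) and 11.9% in CTL 14 (9.04% to 15.4%). CTL 10 was among the 2 highest libraries in 6 of the 8 pairs and CTL 14 in 5. The CTL median was above the HFB median in 7 of the 8 pairs and below it for troponin C. For troponin C the slow share was 1.149% to 7.81% in the HFB glands (median 5.96%) and 3.40% to 20.6% in the CTL glands (median 4.25%), and the share of Tnnc1 was 20.6% in CTL 10 (12.5% to 32.2%), 4.88% in CTL 14 (3.24% to 7.28%) and 1.149% in HFB 6 (0.824% to 1.60%). For troponin I the highest share was 8.70% in CTL 7 (5.91% to 12.6%) and the lowest 1.58% in HFB 6 (1.17% to 2.12%). The regulatory light chains Mylpf and Myl2 gave 1.96% to 5.61% in the HFB glands (median 2.797%) and 2.301% to 7.18% in the CTL glands (median 3.44%). For the calsequestrins the slow share was 3.96% to 14.8% in the HFB glands (median 4.72%) and 6.97% to 20.9% in the CTL glands (median 10.7%), and for the myosin binding proteins 40.2% to 70.9% in the HFB glands (median 50.2%) and 48.9% to 67.4% in the CTL glands (median 56.3%). Reads were not corrected for gene length, so a share can be compared between glands but is not a share of protein or of fibres.

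Taking each gene as a percent of Acta1, a denominator chosen after its values were seen, set the members beside a gene of all fibres. Relative to Acta1, the SD of log2 values (prior count 2) over the 12 libraries had a median of 0.32 over the 13 fast genes, 0.67 over the 8 slow genes, 0.94 over the 5 shared sarcomere genes, 0.72 over the 2 developmental myosins and 0.42 over the 5 enzyme and oxygen store genes. Without HFB 6 and CTL 14 these medians were 0.27, 0.62, 0.83, 0.66 and 0.33. Counting error alone would give medians of 0.12, 0.29, 0.13, 0.27 and 0.17 in the same order, so part of the spread of the slow genes, with as few as 2 counts, is counting error. The shared genes were not alike, with 0.63 for Actn2, 0.75 for Myot, 0.94 for Des, 1.08 for Tpm2 and 1.11 for Tpm1. Fast troponin T (Tnnt3) was the steadiest, at 24.4% to 35.1% of Acta1. In CTL 10, 8 of the 33 other genes were more than 2-fold above their median percent of Acta1, among them 4 of the 8 slow genes (Myh7, Myl3, Tnnc1 and Mybpc1). With a prior count of 2 added, as in the heat map, these numbers were 11 and 7, the further genes being Tnnt1, Tnni1 and Casq2 with 7, 5 and 2 counts. That library had few muscle counts, with 205 for Acta1, 12 for Myh7 and 13 for Tnnc1. HFB 4, CTL 8 and CTL 9 had no gene more than 2-fold away in either direction, with or without the prior count.

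HFB 6 had the most muscle RNA by member counts, and its genes departed from Acta1 in opposite directions. Tnnc2 was at 60.0% of Acta1 in HFB 6, 38.7% in HFB 5 and 36.3% in CTL 14, against 18.4% to 27.4% in the other libraries. Ckm was at 67.1% in HFB 6 and 46.7% in CTL 14, against 20.5% to 41.0%. Tnni2 was at 53.9% in HFB 6 and 44.5% in HFB 5, against 22.6% to 31.4%. HFB 6 was the highest library for each of the 3, and HFB 5 and CTL 14 came next for each. The tops of the last 2 ranges are HFB 5 for Ckm, at 41.0%, and CTL 14 for Tnni2, at 31.4%. Another fast gene, Myl1, went the other way, at 53.6% in HFB 6 and 37.4% in CTL 14, against 56.1% to 76.7%. Mylpf was lowest in CTL 14, at 54.6%, against 62.4% to 133%, and HFB 6, at 73.6%, lay within that range. These genes were singled out after their values were seen. Among genes low in HFB 6, the Z-disc protein gene Myot was at 0.821% in HFB 6 (40 counts), 0.930% in CTL 14 (11 counts) and 1.43% in HFB 5, against 2.44% to 3.91%. Mb was at 3.16% in HFB 6 and 3.89% in CTL 14, against 4.69% to 11.2%. HFB 5, high for Tnnc2 and Tnni2 and low for Myot, had 4097 CPM of Car3, a carbonic anhydrase abundant in fat cells. Car3 was at 148 CPM in HFB 6 and 819 CPM in CTL 14, and at 7598 CPM or more in each of the other 9. Other genes of the adipocyte list went both ways in HFB 5. Fabp4 (25255 CPM) and Cfd (4463 CPM) were highest there of all libraries. Plin1 (666 CPM) and Lpl (1352 CPM) were lower there than in all but HFB 6 and CTL 14. The adipocyte sum of HFB 5, 45241 CPM, lay within the range of the libraries other than HFB 6 and CTL 14. The part of the makeup of these glands in the ratios was not tested.

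**Figure D3:**
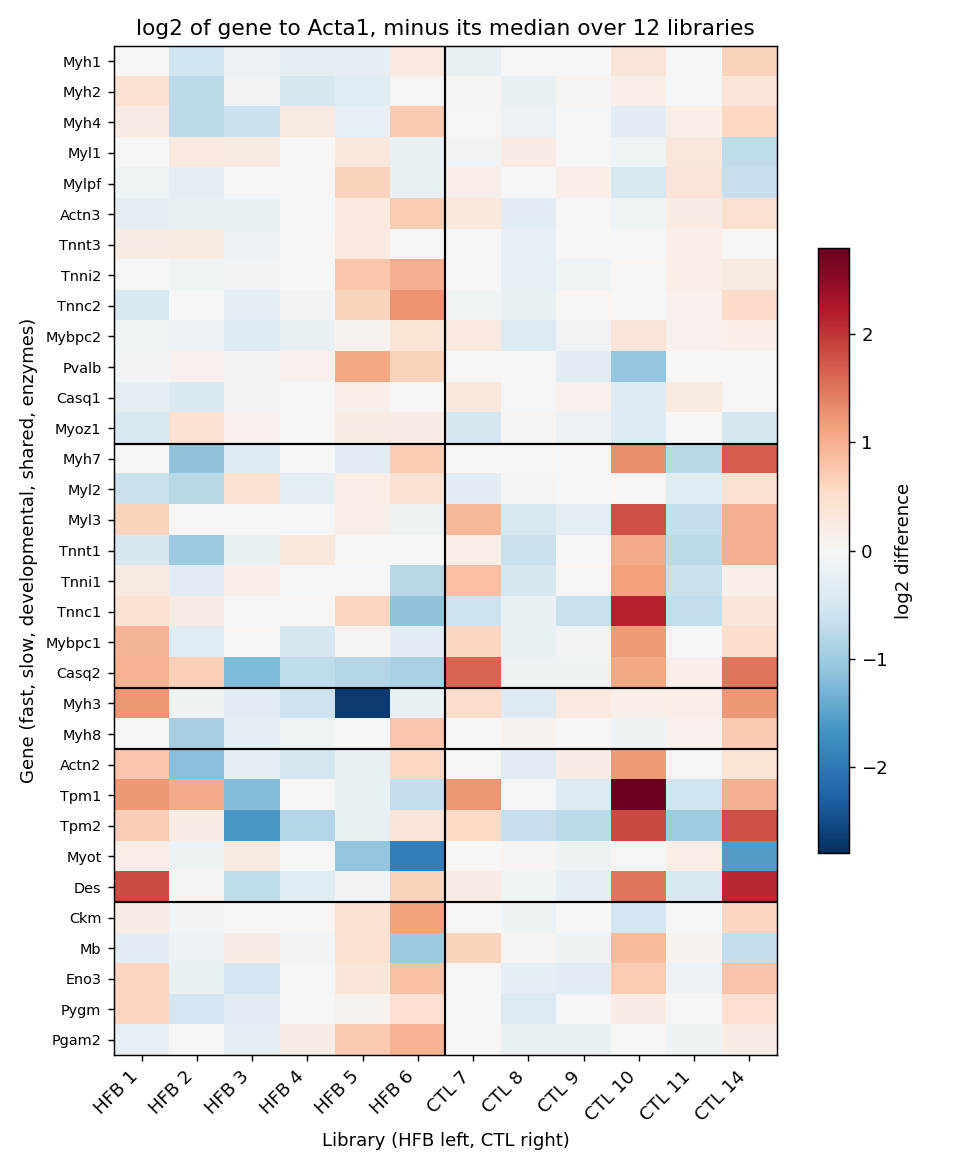
Heat map of log2 of each gene to Acta1 (prior count 2), minus its median over the 12 libraries, with genes grouped as fast, slow, developmental, shared and enzymes, and HFB left of the vertical line. The fast genes stay pale in most libraries, while CTL 10 and CTL 14 show red slow genes and HFB 6 and CTL 14 a blue Myot.

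Des, Tpm1 and Tpm2 are made by skeletal muscle and also by smooth muscle, and the tropomyosins by further cell types. Over the 12 libraries Pearson r of log2 CPM with Acta1 was 0.735 for Tpm2, 0.806 for Des and 0.844 for Tpm1, against 0.995 for Tnnt3. Tnnt3 was the steadiest member relative to Acta1, so its high r is no separate result. The same r was 0.791 for Casq2 and 0.869 for Myh7. A looser relation with Acta1 than that of Tnnt3 was thus not particular to Tpm2, Des and Tpm1. For Tpm2, Des, Tpm1 and Tnnt3 Spearman rho was 0.748, 0.776, 0.825 and 0.993. Without the 2 libraries farthest from the median of Acta1, r was 0.619, 0.771, 0.837 and 0.991. These values share the scaling of each library and are descriptions. With the log2 sum of 10 smooth muscle and myoepithelial markers, r was 0.717 for Tpm2, 0.509 for Des, 0.475 for Tpm1 and 0.109 for Tnnt3, and it was 0.485 for Myh7 and 0.364 for Casq2. For Tpm2, Des, Tpm1 and Tnnt3 Spearman rho was 0.503, 0.329, 0.322 and -0.0629. Without the 2 libraries farthest from the median marker sum r was 0.244, -0.122, 0.334 and -0.107. Those libraries are HFB 6 and CTL 14, and the relation of Tpm2 and Des with the markers rests on them. Des reached 296 CPM in HFB 6 and 174 CPM in CTL 14, the libraries with the highest marker sums. Relative to Acta1 it was highest in CTL 14 (41.8%), HFB 1 (34.1%) and CTL 10 (26.3%), of which the last 2 had few counts of skeletal muscle genes. In edgeR 0 of the 10 markers passed the adjusted threshold for diet. Mylk, the smooth muscle myosin kinase, was the only 1 with an unadjusted p under 0.05, at a log2 fold change of -0.56 (SE 0.25, edgeR adjusted p = 0.999). How much of Des, Tpm1 and Tpm2 came from outside skeletal muscle was not tested.

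**Figure D4:**
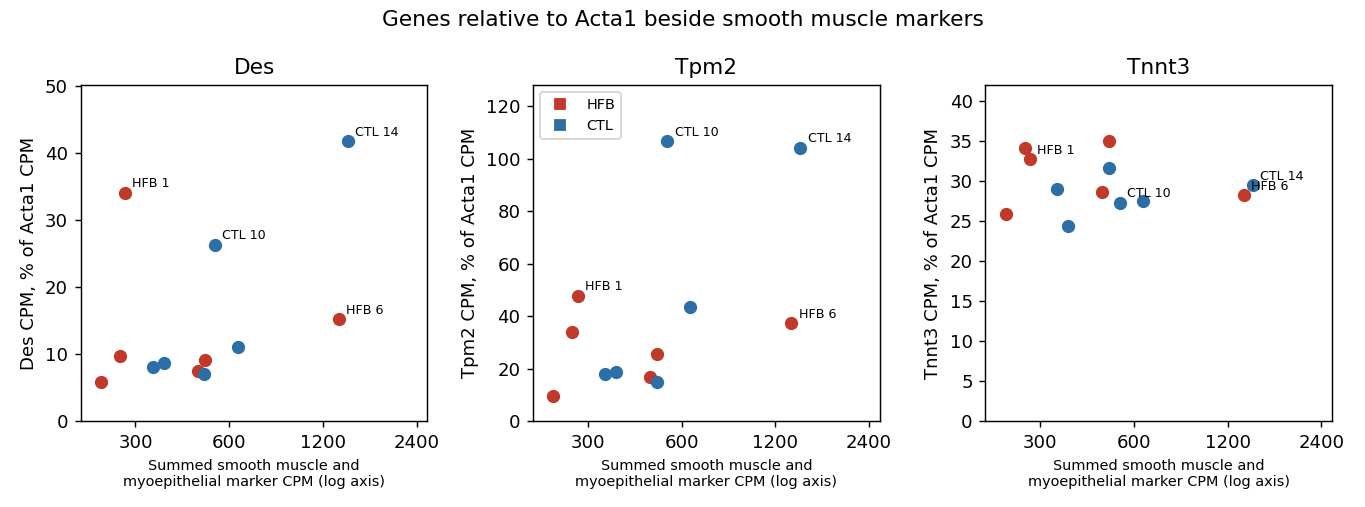
Des, Tpm2 and Tnnt3 as a percent of Acta1 CPM against the summed CPM of smooth muscle and myoepithelial markers (log axis), each point a library, HFB in red and CTL in blue. Tnnt3 is the steadiest member relative to Acta1, so its narrow band is no separate result. Des and Tpm2 are high in CTL 14, which has the highest marker sum, and in CTL 10 and HFB 1, whose sums are 541 and 278 CPM.

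Heart muscle was considered because Myh7, Myl2, Myl3, Tnnc1 and Casq2 are also heart genes. Of the heart markers, 11 of 12 listed genes had a row and 2 were tested. Myl7 and Nkx2-5 were among the 2954 of 16511 genes with 0 counts in all 12 libraries. Of the others, Nppa, Nppb and Mybpc3 had at most 1 count in any library. Gja5 had 3 to 44 counts per library, Tnnt2 1 to 29, Sln 0 to 25, Gata4 0 to 4 and Tnni3 0 to 3. The most abundant was Myh6, the fast heart heavy chain, with 2 to 115 counts per library. Its counts were between 0.417 and 0.661 times those of its neighbour Myh7 in every library, with r = 0.995 and rho = 0.993 for log2 CPM over the 12, and r = 0.995 without the 2 libraries farthest from the median of Myh7. The 2 genes lie side by side and are alike in sequence, so reads of one may have been counted on the other, which was not tested. The marker sum, Myh6 included, was 6.17 to 75.0 CPM in the HFB glands (median 25.4) and 3.34 to 45.4 CPM in the CTL glands (median 24.0), with 0 markers passing the adjusted threshold. Sln is also among the excitation-contraction genes listed below, so this sum is not particular to heart.

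Outside the members, the 10 genes whose log2 CPM followed the fast sum most closely over the 12 libraries were Sh3bgr, Cox6a2, Sypl2, Hrc, Hhatl, Myom1, Cav3, Ampd1, Stac3 and Xirp2. Their Pearson r ran from 0.967 to 0.991 and their Spearman rho from 0.958 to 0.993. Without the 2 libraries farthest from the median r was 0.941 to 0.987, and without HFB 6 and CTL 14 it was 0.968 to 0.990. Several are known muscle genes, such as Cox6a2, the muscle form of a cytochrome oxidase subunit, Ampd1, the muscle AMP deaminase, and Stac3, part of the excitation-contraction machinery. The closest, Sh3bgr, lay between 1.11 and 32.4 CPM, and Cox6a2 between 0.742 and 110.2 CPM. With the slow sum the 10 were Ampd1, Tmod4, Hhatl, Myh6, Pdlim3, Cox6a2, Myom1, Sh3bgr, Itgb1bp2 and Hrc, with r from 0.944 to 0.971. Their rho was 0.888 to 0.951, and r was 0.907 to 0.975 without the 2 farthest libraries and 0.936 to 0.991 without HFB 6 and CTL 14. The 2 lists of 10 shared 6 genes. Of 9292 genes outside the members, 32 had r above 0.9 with the fast sum and 20 with the slow sum.

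The other muscle gene lists were tested for diet only in part, since many of their genes had few counts. Of the excitation-contraction genes, which couple the nerve signal to calcium release, 15 of 18 listed genes had a row and 7 were tested. The most abundant were Fxyd1, a sodium pump regulator, and Atp2a2, the calcium pump of slow fibres, which many other cell types make too. Atp2a2 lay between 104 and 195 CPM in the HFB and between 137 and 205 CPM in the CTL glands, and it was lowest in HFB 6, where the members were high. Of the Z-disc and M-band genes, 20 of 28 listed genes had a row and 13 were tested, and 9 of those tested had r above 0.9 with the fast sum. The most abundant was Cryab, a small heat shock protein of the Z-disc, at 21.8 to 96.7 CPM in the HFB and 33.2 to 83.9 CPM in the CTL glands. Of the muscle metabolism genes, 15 of 18 listed genes had a row and 11 were tested, led by the glycogen synthase gene Gys1. In none of these 3 lists did a gene reach an unadjusted p under 0.05 for diet.

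Myogenic regulators, which drive the making of muscle, had few counts. Of these and the satellite cell genes, 12 of 17 listed genes had a row and 2 were tested, with Mef2d the most abundant. Pax7, Pax3 and Myf5, which mark satellite cells and myoblasts, had 1 count each in all libraries together. Myog, Myf6 and Myod1, singled out after their values were seen, had at most 34, 28 and 17 counts in a library. Each was highest in CTL 11. In HFB 6, whose member counts were higher still, Myog had 3 counts, Myf6 1 and Myod1 4, and in HFB 3 they had 30, 23 and 11. Of the neuromuscular junction genes, 10 of 11 listed genes had a row and 1 was tested, and the most abundant was Etv5. Chrne, the adult subunit of the muscle acetylcholine receptor, was also singled out after the fact. It had 57 counts in HFB 6 and 37 in CTL 14 but at most 7 in the other libraries, so it was high in those 2 libraries and low in CTL 11 and HFB 3, where the fast sum was high. The 3 myogenic and junction genes tested for diet had no unadjusted p under 0.05.

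The remaining marker lists placed the muscle in its tissue. The mammary epithelial markers, led by Krt8, summed to 123 to 654 CPM in the HFB glands (median 287) and 198 to 642 CPM in the CTL glands (median 441), while Csn2 and Cldn3 had 0 counts in all libraries. The adipocyte markers were all 10 present and summed to 23302 to 49364 CPM in the HFB glands (median 46555) and 18384 to 51846 CPM in the CTL glands (median 46713). Brown fat markers, led by Cidea, summed to 172 to 634 CPM in the HFB glands (median 242) and 125 to 591 CPM in the CTL glands (median 228). Red cell markers, led by Hbb, summed to 7567 to 69237 CPM in the HFB glands (median 22993) and 7085 to 42957 CPM in the CTL glands (median 10139). Among the endothelial markers Cldn5 had 0 counts throughout. The lymphoid sum was 17.9 to 1089.6 CPM in the HFB glands (median 99.0) and 18.6 to 1234 CPM in the CTL glands (median 37.1). In edgeR 0 genes of these lists had an adjusted p under 0.05 for diet, and 0 an unadjusted p under 0.05. The labelled tissue was thus present by its epithelial and fat markers in every library.

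HFB was compared with CTL to ask whether the maternal diet went with a different level of muscle genes in the offspring's gland. In edgeR 0 of the 34 genes were called at a Benjamini-Hochberg adjusted p under 0.05, where 0% of the 9382 genes tested were called. At an unadjusted p under 0.05 there were 0 of 34, against 220 of 9382 genes, or 2.34%. DESeq2 and limma-voom also called 0 genes at the adjusted threshold. Their unadjusted counts were 320 of 13557 and 613 of 9382 genes, with 0 of the 34 in either. The 34 log2 fold changes had a median of 0.44, beside 0.00018 over all genes tested, and 31 were above 0. The SE of a single gene lay between 0.33 and 0.88, with a median of 0.77 beside 0.24 over all genes. The members' levels move together, so the 31 are not 31 separate observations.

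The median depended on single glands. It was 0.052 without HFB 6, 0.20 without HFB 3 and 0.21 without CTL 10, and 1.09 without CTL 11, while without HFB 1 or HFB 2 it was 0.66 and 0.68, and without CTL 7 it was 0.29. Without HFB 6 and CTL 14 it was -0.029, with 14 of 33 genes above 0. With limma-voom, which changed both the test and the weights of the libraries, it was 0.038, with 18 of 34 above 0. A difference in muscle gene level between the diets was not detectable beyond the spread between glands.

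By role, the median log2 fold change was 0.42 for the 13 fast genes, of which 13 were above 0, and 0.50 for the 8 slow genes, of which 7 were above 0. It was 0.70 for the 5 enzyme and oxygen store genes, 0.23 for the 6 shared genes and 0.090 for the 2 developmental myosins. Without HFB 6 and CTL 14 it was -0.099 for the fast genes, with 4 of 13 above 0, and 0.33 for the slow genes, with 6 of 8 above 0. These edgeR medians over genes run against the log2 fast to slow ratio of summed CPM. That ratio was 0.44 higher in the HFB glands, and 0.29 higher without HFB 6 and CTL 14. It was also 0.42 higher when taken from the mean of log2 CPM, and 0.42 higher as the mean over the 8 pairs. The direction of a fast to slow difference thus differed between the edgeR fit and the means of log2 values over libraries. Why it differed was not tested. With HFB 6 and CTL 14 left out the median log2 fold change was 0.093 for the enzyme and oxygen store genes, with 4 of 5 above 0. It was -0.17 for the shared genes, with 0 of 6 above 0. Of the developmental myosins Myh8 alone was then tested, at -0.25. The smallest p belonged to Casq2, with a log2 fold change of -0.90 (SE 0.59, edgeR adjusted p = 0.999) and a 95% interval of -2.17 to 0.38. The highest HFB gland had 8.82 CPM, and CTL 11 had 21.1 CPM and CTL 14 10.2 CPM. Casq2 was below the CTL median in 4 of 6 HFB glands. Its unadjusted p was under 0.05 without CTL 10 and with no other single library left out, and it did not pass the adjusted threshold there. Without CTL 11 its log2 fold change was -0.42. Pgam2 had a log2 fold change of 0.98 (SE 0.80, edgeR adjusted p = 0.999) and an interval of -0.75 to 2.71, with 4 of 6 HFB glands above the CTL median. It was 0.34 without HFB 6, 1.63 without CTL 11, 0.26 without HFB 6 and CTL 14, and 0.31 with limma-voom. Pvalb had a log2 fold change of 0.90 (SE 0.83, edgeR adjusted p = 0.999) and an interval of -0.90 to 2.70. It was 0.47 without HFB 6, 1.63 without CTL 11, 0.36 without HFB 6 and CTL 14, and 0.57 with limma-voom. Acta1 had 0.42 (SE 0.76, edgeR adjusted p = 0.999) with an interval of -1.22 to 2.06, which leaves room for more than a 2-fold difference in either direction. With single libraries left out it lay between 0.032 (without HFB 3) and 1.08 (without CTL 11), and it was 0.12 with limma-voom and -0.00064 without HFB 6 and CTL 14.

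**Figure D5:**
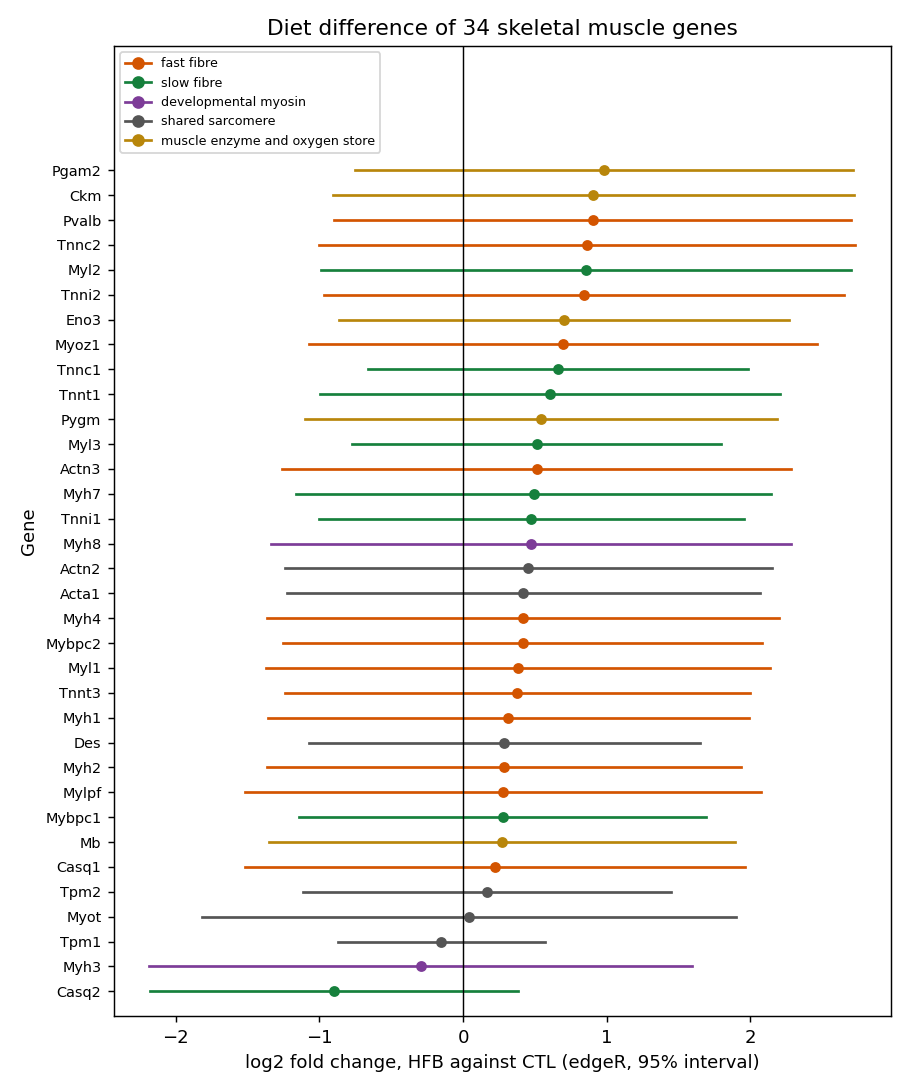
log2 fold change of HFB against CTL for the 34 genes with 95% intervals from edgeR, coloured by role. Each interval includes 0, and 31 of the 34 points lie above 0, against 14 of 33 without HFB 6 and CTL 14.

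The log2 summed CPM of the fast genes was 11.1 ± 1.79 (SD, n = 6) in the HFB and 10.6 ± 1.77 (SD, n = 6) in the CTL glands, a difference of 0.51 beside a pooled SD of 1.78. Without CTL 10 the difference was -0.060, and without HFB 6 and CTL 14 it was 0.098. It was 0.19 without HFB 3 and 0.15 without HFB 6, and 1.00, 0.89 and 0.99 without HFB 1, HFB 2 and CTL 11. For the slow genes the values were 6.95 ± 1.77 (SD, n = 6) and 6.89 ± 1.15 (SD, n = 6), a difference of 0.069 beside a pooled SD of 1.49. This difference was below 0 without HFB 3 (-0.31), HFB 5 (-0.026), HFB 6 (-0.27), CTL 7 (-0.036) or CTL 10 (-0.30), without HFB 6 and CTL 14 (-0.19), and with plain CPM (-0.024). It was 0.46, 0.52, 0.20, 0.38 and 0.14 without HFB 1, HFB 2, CTL 9, CTL 11 and CTL 14, and 0.037 without HFB 4 or CTL 8. The spread within a diet was thus larger than the difference between the diets for both fibre types.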

How the data were processed

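Gene counts were deposited by the authors as whole-number reads per gene, without normalization, for 12 mammary glands at PND21. The submitters' processing notes name bcl2fastq, CASAVA 1.8, TopHat, DESeq and the build rn4, and the counting program, annotation and strand setting are not given in the sources used here. Counts on genes with close copies, such as the myosin heavy chains, are therefore uncertain. Groups were taken from the diet in the labels. Symbols came from RefSeq (GRCr8) by Entrez identifier, for 16351 of 16511 genes. The order of neighbouring genes and the promoter coordinates given are those of GRCr8, which is not the build named in the notes.

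CPM used the total over tested genes and TMM factors from edgeR 4.0.16 in R 4.3.3, and log2 CPM a prior count of 2. HFB was tested against CTL with edgeR's quasi-likelihood test on 9382 genes kept by filterByExpr, with Benjamini-Hochberg adjustment over all of them. The 34 members analysed all passed the filter. The standard error is the log2 fold change divided by the root of F. 1 gland per litter was used, so p-values measure the spread between litters. As a check for 1 library deposited more than once, counts were compared between libraries of a diet, and no pair was that alike (chi-square per degree of freedom at least 7.10 over 30 pairs). This says nothing of how alike the glands were otherwise.

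The alternatives were DESeq2 1.42.0, DESeq2 size factors, upper-quartile scaling, limma 3.58.1 (voom with sample quality weights), a filter of at least 10 counts in each library or none, plain CPM, mean log2 CPM, the 8 pairs, lists without heavy chains, and each library left out in turn. Leaving out HFB 6 and CTL 14 together, the ratio to Acta1 with no prior count, and the member share without Des, Tpm1 and Tpm2 were added after seeing the data. The SD from counting error alone was worked out from Poisson variances of a gene and Acta1 on the log2 scale. Descriptions used Python 3.11.15 with scipy 1.17.1. The members and lists were chosen with earlier results of these data known. The rule named the heavy chains, both genes of each pair, Acta1, Ckm, Mb, Pvalb, Actn3, Ttn and Atp2a1 (the last 2 not analysed here), the 3 members with the smallest p, any with an adjusted p under 0.05, the 10 genes outside the members most like the fast or slow sum, and up to 3 of the most abundant genes in each list.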

Additional observations from a re-analysis of the deposited data

Results flagged for a closer look

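Each member's log2 CPM, the fast and slow sums, their ratio and the slow share were examined within each diet for a library far from the other 5, by the gap to its nearest neighbour over the whole range. Of 76 such groups of 6 libraries, 0 passed Dixon's 95% critical value. Chance alone gives about 1 in 20.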

How the results depend on the processing

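The diets share no library number, so no pairing could be used. The count of genes with an adjusted p under 0.05 was 0 in edgeR, DESeq2 and limma-voom and in every alternative run, for the members and for all genes, with 135 to 613 genes at an unadjusted p under 0.05. For the members the unadjusted count was 0, and between 0 and 1 when single libraries were left out, the 1 being Casq2 without CTL 10. The members' median log2 fold change was 0.36 to 0.45 under the other scalings, filters and DESeq2, 0.038 with limma-voom, 0.052 to 1.09 when single libraries were left out and -0.029 without HFB 6 and CTL 14. The fast to slow difference on the log2 scale was 0.42 to 0.46 under the planned scalings and lists, 0.24 to 0.62 with single libraries left out and 0.29 without HFB 6 and CTL 14. The edgeR log2 fold changes do not share this direction, with a median of 0.42 for the fast and 0.50 for the slow genes, and -0.099 and 0.33 without HFB 6 and CTL 14. The fast sum difference was 0.42 to 0.52 under the scalings and -0.060 to 1.00 with single libraries left out, and the slow sum difference was -0.024 to 0.076 and -0.31 to 0.52, and without HFB 6 and CTL 14 -0.19. No scaling moved the median of all genes by more than 0.029 in size. Of the 26 named genes, none passed a threshold in the full fit, and the log2 fold change took the opposite sign in 13 with limma-voom, namely Myh1 -0.097, Myh2 -0.076, Myh4 -0.035, Myh7 -0.34, Myh3 0.052, Myh8 -0.079, Myl3 -0.032, Tnnt1 -0.16, Tnni1 -0.077, Mybpc2 -0.010, Mybpc1 -0.11, Casq1 -0.0091 and Mb -0.14. Without HFB 6 and CTL 14 it did so in 12 of 25 tested, namely Myh1 -0.21, Myh2 -0.18, Myh4 -0.36, Myh8 -0.25, Mylpf -0.099, Tnnt3 -0.032, Tnnc2 -0.029, Mybpc2 -0.21, Mybpc1 -0.0012, Casq1 -0.22, Acta1 -0.00064 and Actn3 -0.16. Leaving out single libraries turned the sign of some genes, with ranges of Myh1 -0.16 to 0.93, Myh2 -0.12 to 0.90, Myh4 -0.29 to 1.14, Myh7 -0.24 to 0.76, Myh3 -0.78 to 0.33, Myh8 -0.21 to 1.12, Mylpf -0.079 to 1.13, Myl1 -0.11 to 1.24, Tnni1 -0.16 to 0.86, Mybpc2 -0.10 to 1.17, Mybpc1 -0.21 to 0.84, Casq1 -0.13 to 0.98, Mb -0.36 to 0.99 and Actn3 -0.077 to 1.25. The cause of these changes was not tested. Depth limits the sparse members, since Myh3 and Casq2 had fewer than 3 counts in at least 1 library and 12 of 34 members fell below 10 counts in a library.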
